A study of Mus musculus with 2 samples.

Results

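Fatty acid oxidation and ketone body metabolism in the mouse intestine were described through 37 genes, chosen by gene symbol from the enzymes, transporters and regulators that colonocytes use to take up and burn butyrate and other fatty acids. All 37 symbols were found among the 40879 in the count files, and the rule itself uses symbols and no measured value. Fatty acids are activated to acyl-CoA, carried into mitochondria by the carnitine shuttle and shortened in repeated rounds of dehydrogenation, hydration, a further dehydrogenation and thiolysis, with the electrons passed on through electron transfer flavoprotein. In the colon, butyrate made by bacteria enters the epithelium through monocarboxylate transporters and is a main fuel of colonocytes, which can also turn acetyl-CoA into ketone bodies or use ketone bodies for energy. Nuclear receptors of the PPAR family and their coactivators are known to regulate many of these genes.

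The study compared intestine of ERAP1 WT and ERAP1+/- mice to find genes whose expression depends on ERAP1, an aminopeptidase of the endoplasmic reticulum that trims peptides for antigen presentation. Each genotype was 1 library, made from equal amounts of RNA of 3 mice, so the mice of a genotype cannot be told apart. The mice had a C57BL/6 background and were 8 weeks old when the study assigned them to groups, their age at sampling is not in the labels, and the methods describe them both as germ-free and as kept in an SPF facility. The ERAP1+/- mice descend from ERAP1tm1a(EUCOMM)Wtsi embryonic stem cells of 1 clone crossed with a strain that expresses Cre recombinase, whose promoter is not named, and exons 6 and 7 lie between the loxP sites. The labels give the tissue as intestine without a segment, and they give no sex and no treatment for these libraries. The reads come from the 3' ends of transcripts, so their number does not grow with transcript length, and levels are given as CPM (reads scaled to a common library size by TMM, the trimmed mean of M values) without division by length.

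Counted reads totalled 8114826 in WT and 8907515 in the library labelled ERAP1+/-. Erap1 had 229 reads in WT and 2 in the library labelled ERAP1+/-, a ratio of 0.0073 (95% interval 0.000878 to 0.0267), although a heterozygote keeps 1 intact allele. Reads of this kit lie at the end of the transcript, outside exons 6 and 7, and so do not check the deletion itself. Xist, the RNA that silences an X chromosome in females, had 1635 reads in WT and 6451 in the library labelled ERAP1+/-, and the Y-linked gene Ddx3y had 319 and 29. The libraries thus differed in genes linked to the X and the Y chromosome, and the sex of the mice cannot be told apart from their genotype. With 1 library per genotype there is no replicate check and no test, and the intervals given with ratios are exact conditional binomial 95% intervals that cover counting error only. A difference was called where it passed 2-fold on the log2(CPM + 1) scale and the value was at least 4 on that scale (15 CPM) in 1 or both libraries.

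Promoter sequence is shown for the members with the highest and the lowest difference between the libraries, Slc5a8 and Acsl1, and for the interval between Hadha and Hadhb, whose products form 1 enzyme complex. The last of these was chosen after the values were seen. The sequences are from RefSeq on GRCm38.p6, read 5' to 3' on the plus strand, and capitals mark GC boxes (GGGCGG, or CCGCCC for a box on the other strand). The first is the 250 bases before the annotated start of Slc5a8, chr10:88885742-88885991, with 3 GC boxes.
Slc5a8: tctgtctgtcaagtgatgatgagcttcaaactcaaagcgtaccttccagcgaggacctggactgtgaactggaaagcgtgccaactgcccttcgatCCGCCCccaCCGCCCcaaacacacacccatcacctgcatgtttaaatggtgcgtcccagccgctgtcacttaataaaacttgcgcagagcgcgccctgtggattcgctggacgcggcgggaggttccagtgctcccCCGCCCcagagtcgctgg
The second is the 250 bases before the start of Acsl1, chr8:46470787-46471036, with 4 GC boxes.
Acsl1: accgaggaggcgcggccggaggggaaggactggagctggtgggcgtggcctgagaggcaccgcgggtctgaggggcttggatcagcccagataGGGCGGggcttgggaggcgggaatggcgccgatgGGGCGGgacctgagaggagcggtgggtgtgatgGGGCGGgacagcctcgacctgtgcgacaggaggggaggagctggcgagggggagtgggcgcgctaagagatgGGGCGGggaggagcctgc
The third is the whole stretch of 85 bases between the starts of Hadha on the minus strand and Hadhb on the plus strand, chr5:30155163-30155247, with 2 GC boxes.
Hadha and Hadhb: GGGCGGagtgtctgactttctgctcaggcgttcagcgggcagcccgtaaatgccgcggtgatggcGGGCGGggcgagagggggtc
Both the member with the higher value in the library labelled ERAP1+/- and the member with the lower value thus carry GC boxes before their start. In the RefSeq windows from 250 bases before to 50 bases after each start, 24 of 36 windows of 32 members held a GC box on either strand (66.7%), against 35.7% of all 32851 windows. A CCAAT box, searched on both strands, was found in 16 of the 36 member windows (44.4%) and in 37.4% of all windows. All windows cover 27025 genes whatever their level here, and no share was computed for expressed genes alone, as most members are. The peroxisome proliferator response element, written as copies of AGGTCA in 1 direction with 1 base between them, was found on neither strand of any member window, and 0.0396% of all windows held it. With any base allowed at the fourth position of the half-site (AGGNCA), the same was true of the members, and 0.381% of all windows held it. At shares this low, finding none in 36 windows says little about the members, and sequence outside the windows was not searched. A single AGGTCA on either strand, the half-site of that element, was present in 7 member windows (19.4%) and in 16.3% of all windows, and the members were Acadm, Acadvl, Cd36, Cpt1a, Echs1 and Pparg. No window was given for 5 members.

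Across the pathway, no member passed the 2-fold call in either direction, against 5.34% of the 8013 genes past the level of 4 (428 genes). Values of most members were slightly higher in the library labelled ERAP1+/-. Of the 34 members with at least 10 reads over both libraries, 22 had a positive log2 difference and 12 a negative one, with a median of 0.19 (quartiles -0.07 and 0.45). Over all genes past the level the median was -0.03 (quartiles -0.28 and 0.21). Positive differences were found for 66.7% of the 33 members past the level and for 47.3% of all genes past it. The other members had few reads. Ehhadh, Acaa1b and Pdk4 were under 10 reads, and Angptl4 was under the level with 16 reads in WT and 18 in the library labelled ERAP1+/-. Summed over all members, the pathway had 22942 reads in WT and 30624 in the library labelled ERAP1+/-, which is 0.283% and 0.344% of all reads. Its summed level was 2953 CPM in WT and 3292 CPM in the library labelled ERAP1+/-, a ratio of 1.12 (1.10 to 1.13). In tissue RNA, fewer cells of a type and less RNA per cell cannot be told apart.

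**Figure D1:**
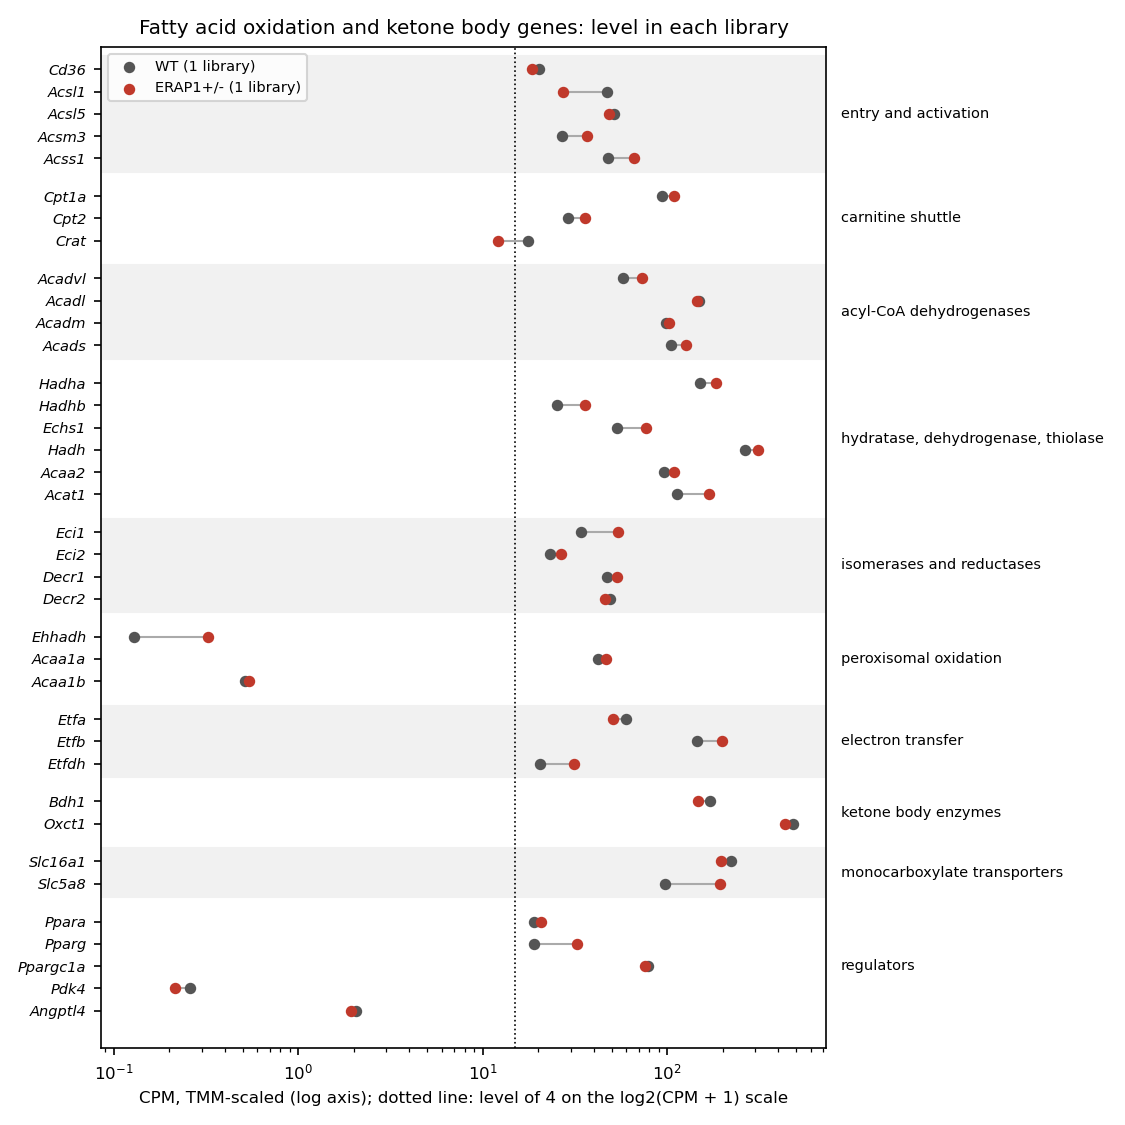
Level of each of the 37 members in CPM (TMM-scaled, log axis), grouped by role, with a grey point for the WT library and a red point for the library labelled ERAP1+/-. Above 15 CPM most points of a gene lie close together and those of Slc5a8 and Acsl1 are the furthest apart, in opposite directions, and the dotted line marks the level of 15 CPM below which Ehhadh, Acaa1b, Pdk4 and Angptl4 fall in both libraries.

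A threshold of 1.5-fold took in 3 members that were higher in the library labelled ERAP1+/-, Eci1, Slc5a8 and Pparg (9.09% of the 33 past the level, against 5.54% of all genes), and 1 that was lower, Acsl1 (3.03%, against 10%). The interval of the ratio lay above 1 for 17 of the 33 members (51.5%), where 25.5% of all genes past the level had such an interval. It lay below 1 for 6 members, namely Acsl1, Crat, Etfa, Bdh1, Oxct1 and Slc16a1 (18.2%, against 32.4% of all genes). For the 10 remaining members past the level it held 1. An interval leaves 1 more easily where a gene has many reads. Both counts moved with the scaling of the libraries, as given with the scaling comparison.

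**Figure D2:**
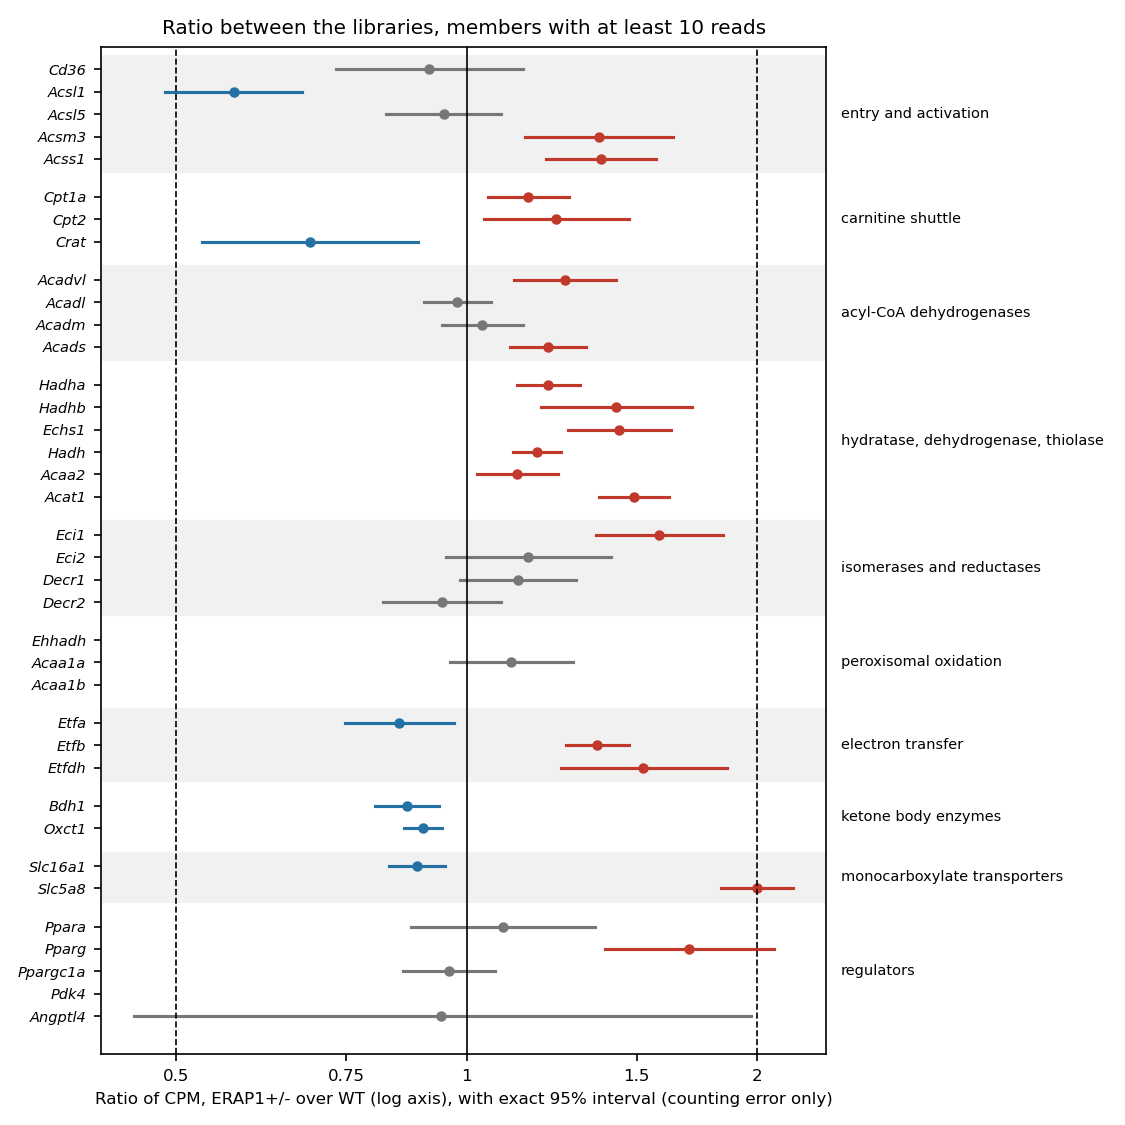
Ratio of CPM, ERAP1+/- over WT (log axis), for the 34 members with at least 10 reads, with exact 95% intervals for counting error. Red marks intervals above 1, blue intervals below 1 and grey intervals that hold 1, dashed lines mark 2-fold, and Slc5a8 lies on the upper of them with a ratio of 2.0.

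**Figure D3:**
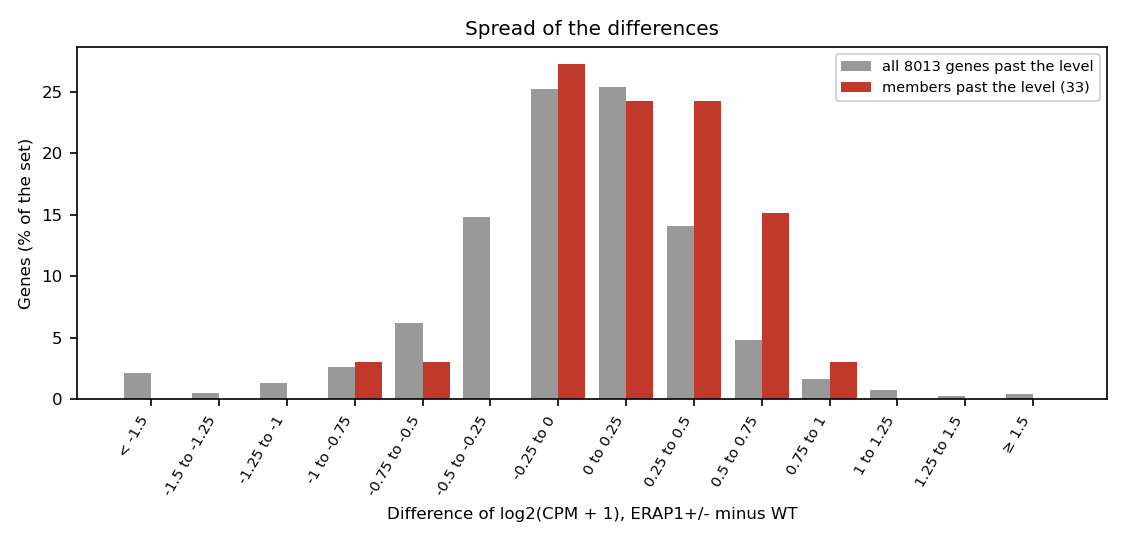
Share of genes (%) in each bin of the log2(CPM + 1) difference, ERAP1+/- minus WT, for all 8013 genes past the level (grey) and the 33 members past it (red). Between 0.25 and 0.5 lie 24.2% of the members and 14.1% of all genes, between 0.5 and 0.75 lie 15.2% and 4.80%, and no member lies beyond 1 in either direction.

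Entry and activation of fatty acids had values in both directions, with a median log2 difference of -0.08 over 5 genes. Acsl1, a long-chain acyl-CoA synthetase abundant in fat and muscle (chromosome 8 of GRCm38, 46471037 to 46536051), had 367 reads (47.2 CPM) in WT and 252 reads (27.1 CPM) in the library labelled ERAP1+/-. Its level was 0.574 times that of WT (0.487 to 0.675), the lowest log2 difference of the members with at least 10 reads at -0.78. Acsl5, the long-chain synthetase typical of intestinal epithelium, had 398 and 451 reads (51.2 and 48.5 CPM), with an interval that held 1 (0.825 to 1.09). Synthetases of shorter acids pointed the other way. Acss1, which activates acetate in mitochondria, had 47.9 CPM in WT and 65.9 CPM in the library labelled ERAP1+/-, a ratio of 1.38 (1.21 to 1.57). Acsm3, a medium-chain acyl-CoA synthetase, had 26.8 and 36.7 CPM, a ratio of 1.37 (1.15 to 1.64). Cd36, a fatty acid translocase of the cell surface that is also found on fat, muscle, endothelium and macrophages, had 157 and 172 reads and an interval that held 1 (0.733 to 1.14).

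In the carnitine shuttle, both carnitine palmitoyltransferases had intervals above 1 and carnitine acetyltransferase an interval below it. Cpt1a, the outer membrane enzyme that controls entry of long-chain acids into mitochondria, had 727 reads (93.6 CPM) in WT and 1008 reads (108 CPM) in the library labelled ERAP1+/-, a ratio of 1.16 (1.05 to 1.28). Cpt2, the inner membrane enzyme, had 226 and 335 reads and a ratio of 1.24 (1.04 to 1.47). Crat, which moves acetyl groups between CoA and carnitine, had 137 and 113 reads (17.6 and 12.1 CPM), and its ratio was 0.689 (0.532 to 0.890).

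The acyl-CoA dehydrogenases, which carry out the opening step of each round, differed little, with a median of 0.16 over 4 genes. Acadvl, for very long chains, had 57.4 CPM in WT and 72.6 CPM in the library labelled ERAP1+/-, a ratio of 1.26 (1.12 to 1.43). Acads, for short chains such as butyryl-CoA, had 810 and 1176 reads (104 and 126 CPM), a ratio of 1.21 (1.11 to 1.33). The enzymes for the chain lengths in between had intervals that held 1. Acadl had 1157 and 1355 reads with a ratio of 0.978 (0.904 to 1.06), and Acadm had 761 and 945 with a ratio of 1.04 (0.942 to 1.14).

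The mitochondrial enzymes of the later steps were the role with several well-covered genes in which every member had a higher value in the library labelled ERAP1+/-, with 6 of 6 intervals above 1 and a median log2 difference of 0.39. Their summed level was 702 CPM in WT and 883 CPM in the library labelled ERAP1+/-, a ratio of 1.26 (1.22 to 1.30). Acat1, the thiolase that acts on acetoacetyl-CoA in ketone body formation and use, had 875 and 1560 reads (113 and 168 CPM), a ratio of 1.49 (1.37 to 1.62). The size of the difference varied within the group. Echs1, the short-chain enoyl-CoA hydratase, had 53.3 and 76.6 CPM, a ratio of 1.44 (1.27 to 1.63). Hadhb and Hadha, the beta and alpha subunits of the trifunctional protein for long chains, had ratios of 1.43 (1.19 to 1.71) and 1.21 (1.13 to 1.31). These subunit genes lie head to head on chromosome 5, Hadha from 30118304 to 30155162 and Hadhb from 30155248 to 30184593, around the interval printed above. Hadh, the dehydrogenase for shorter chains and the second most abundant member in both libraries, had 2043 and 2890 reads (263 and 311 CPM), a ratio of 1.18 (1.12 to 1.25). The smallest ratio of the group was that of the thiolase gene Acaa2, with 747 and 1009 reads and a ratio of 1.13 (1.03 to 1.24).

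Among the enzymes that prepare unsaturated fatty acids, Eci1, a mitochondrial enoyl-CoA isomerase (chromosome 17, 24426641 to 24439348), stood apart with 266 reads (34.2 CPM) in WT and 504 reads (54.2 CPM) in the library labelled ERAP1+/-, a ratio of 1.58 (1.36 to 1.84). The other genes of this role had intervals that held 1. Eci2, a related isomerase, had a ratio of 1.16 (0.951 to 1.41), the mitochondrial dienoyl-CoA reductase gene Decr1 1.13 (0.985 to 1.30) and the peroxisomal reductase gene Decr2 0.943 (0.820 to 1.09). Peroxisomal oxidation was covered by few reads. Its multifunctional enzyme Ehhadh had 1 read in WT and 3 in the library labelled ERAP1+/-, and the thiolase Acaa1b had 4 and 5, so no difference was detectable at this depth. The related thiolase Acaa1a had 326 and 434 reads (42.0 and 46.7 CPM), with an interval that held 1 (0.961 to 1.29).

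Electron transfer genes did not move alike. Etfb, the beta subunit of electron transfer flavoprotein, had 1126 reads (145 CPM) in WT and 1841 reads (198 CPM) in the library labelled ERAP1+/-, a ratio of 1.37 (1.27 to 1.47). Its partner Etfa, the alpha subunit, had 463 and 472 reads (59.6 and 50.7 CPM), a ratio of 0.852 (0.747 to 0.970). Etfdh, the membrane enzyme that passes the electrons to ubiquinone, had 159 and 290 reads, a ratio of 1.52 (1.25 to 1.86). The ratio of Etfb to Etfa reads was 2.43 in WT and 3.90 in the library labelled ERAP1+/-, and changed by a factor of 1.60 (1.38 to 1.86). Of the 75-base windows in the last 500 bases of the Etfb transcript, 45.8% also occur in the annotated gene Gm45233, and its count is uncertain to that extent.

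The ketone body enzymes both had values below those of WT. Oxct1, the CoA transferase that commits acetoacetate to oxidation (chromosome 15, 4026383 to 4155344), was the most abundant member of all, with 3738 reads (481 CPM) in WT and 4033 reads (434 CPM) in the library labelled ERAP1+/-. Its ratio was 0.901 (0.862 to 0.942). Bdh1, which converts between beta-hydroxybutyrate and acetoacetate, had 1319 and 1370 reads (170 and 147 CPM), a ratio of 0.868 (0.804 to 0.936). Both log2 differences, -0.15 and -0.20, turned positive when the libraries were scaled to the colonocyte list.

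The monocarboxylate transporters, through which butyrate and ketone bodies cross the membrane, gave opposite values. Slc5a8, the sodium-coupled transporter of the apical membrane of colonocytes (chromosome 10, 88885992 to 88929515), had 755 reads (97.2 CPM) in WT and 1806 reads (194 CPM) in the library labelled ERAP1+/-. Its ratio was 2.0 (1.83 to 2.18), and its log2 difference of 0.99, the highest of the members with at least 10 reads, was just short of the 2-fold call. Slc16a1, the proton-coupled transporter, had 1716 and 1824 reads (221 and 196 CPM), a ratio of 0.888 (0.831 to 0.949). There were thus 0.440 reads of Slc5a8 for each read of Slc16a1 in WT and 0.990 in the library labelled ERAP1+/-, a change by a factor of 2.25 (2.02 to 2.51).

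Of the regulators, Pparg had the higher value in the library labelled ERAP1+/-, and the others with enough reads had intervals that held 1. Pparg, a nuclear receptor found in fat and in colonic epithelium (chromosome 6, 115360951 to 115490399), had 148 reads (19.0 CPM) in WT and 301 reads (32.4 CPM) in the library labelled ERAP1+/-, a ratio of 1.70 (1.39 to 2.08). Ppara, the receptor best known for control of fatty acid oxidation in liver, had 148 and 193 reads, a ratio of 1.09 (0.875 to 1.36). Ppargc1a, a coactivator of mitochondrial genes, had 614 and 704 reads with a ratio of 0.958 (0.858 to 1.07). Pdk4, the kinase that spares glucose by blocking pyruvate dehydrogenase, had 2 reads in each library. Angptl4, a secreted inhibitor of lipoprotein lipase, was at 2.06 and 1.94 CPM, with an interval of 0.452 to 1.97.

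Read ratios between members of the same library do not depend on the scaling. In 9 pairs of genes of related function, picked after the values were seen, this ratio was compared, and the interval of its change held 1 for 3 pairs. The pairs include the members with the highest and the lowest difference. No share for other gene pairs was computed, so the count describes these pairs only. The pairs that kept 1 within the interval were Hadhb to Hadha (a change by a factor of 1.18, 0.967 to 1.43), Cpt2 to Cpt1a (1.07, 0.877 to 1.30) and Bdh1 to Oxct1 (0.963, 0.881 to 1.05). Reads of Acat1 per read of Oxct1 were 0.234 in WT and 0.387 in the library labelled ERAP1+/-, a change by a factor of 1.65 (1.5 to 1.82). Those of Acsl5 per read of Acsl1 were 1.08 and 1.79, a factor of 1.65 (1.33 to 2.05). Thus the thiolase had more reads for each read of the CoA transferase, and Acsl5 more for each read of Acsl1, in the library labelled ERAP1+/-. The change was smaller for Acads per read of Acadl, with a factor of 1.24 (1.10 to 1.40), and was 1.56 (1.15 to 2.11) for Pparg per read of Ppara.

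Beyond the members, 149 other genes of these pathways were found in the files, 81 of them past the level. Of these, 4 were called higher and 1 lower in the library labelled ERAP1+/-, beside the 5.34% of all genes past the level that were called in either direction, and the median log2 difference of the 129 with at least 10 reads was -0.01. Mitochondrial oxidation genes outside the members had a median of 0.33 with 16 of 21 positive, and the 1 called gene among them was Pcca, a subunit of propionyl-CoA carboxylase, with 85 reads in WT and 236 in the library labelled ERAP1+/- (ratio 2.32, 1.8 to 3.01).

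Ketone body genes outside the members had a median of 0.41, with 4 of 6 positive and 1 called higher. The other lists had medians near zero or below it. Monocarboxylate transport and butyrate sensing genes had a median of -0.15, with Ffar2, a receptor of short-chain fatty acids, called higher (53 and 235 reads, ratio 3.70, 2.74 to 5.09) and the transporter gene Slc16a5 called lower (273 and 154 reads, ratio 0.471, 0.384 to 0.576). The PPAR target list had a median of -0.21, and 2 of its genes were called higher, among them Fabp2, a fatty acid binding protein of the intestine, with 56 and 299 reads (ratio 4.46, 3.34 to 6.04). Lipid droplet gene Plin2 of this list had 895 and 1069 reads with a ratio of 0.998 (0.912 to 1.09). Fabp1 had 1 read in WT and 0 in the library labelled ERAP1+/-, and Ucp3 had 3 and 1. Activation and trafficking genes had a median of -0.23 and regulators one of -0.08, and no gene of either list was called. Among the regulators, Ppard had 461 and 387 reads, a ratio of 0.701 (0.611 to 0.804). Carnitine genes had a median of 0.02, with Slc25a20, the carnitine carrier, at 1244 and 1392 reads (0.935, 0.865 to 1.01) and the muscle enzyme Cpt1b at 0 and 1. Peroxisomal genes had a median of 0.01, with the isomerase gene Ech1 at 778 and 1128 reads (1.21, 1.10 to 1.33).

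Markers of skin and muscle differed far more than the members did. Suprabasal epidermis genes were called lower in the library labelled ERAP1+/- for 18 of 18 past the level, with a summed level of 3861 CPM in WT and 51.9 CPM in the library labelled ERAP1+/-, and with Ivl, Dsc1, Dsg1a, Dsg1b, Lce1a1, Lce1b, Lce3a and Klk7 at 0 there. Skeletal muscle genes were called lower for 16 of 17 past the level, from 1931 to 251 CPM in sum, with Atp2a1, Myot and Casq1 at 0 in the library labelled ERAP1+/- and Myh7 at 0 in both libraries. Genes of epidermis and striated muscle were thus present in WT and far lower in the other library, where Des, which smooth muscle also expresses, gave 2001 of the 2332 reads of the skeletal muscle list. Smooth muscle genes summed to 11375 and 5796 CPM, with 10 of 10 differences negative. Basal stratified epithelium had a median of -2.63, summed levels of 1191 and 479 CPM and Trp63 at 0, and hair follicle and sebaceous gland had a median of -3.16, summed levels of 449 and 77.2 CPM and 9 genes at 0, of which Krtap5-1 was at 0 in WT too. These lists differed in the same direction as the 6 members with intervals below 1, and their part in those values was not tested.

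Genes of colonocytes, the cells whose butyrate use the choice of members refers to, were present in both libraries, with none of 20 at 0. Their median log2 difference was -0.31, with 14 of 20 negative, and their summed level was 22041 CPM in WT and 16118 CPM in the library labelled ERAP1+/-, a ratio of 0.731 (0.726 to 0.736). The 3 most abundant were Muc13 (-0.88), Lgals4 (-0.01) and Cdh1 (-0.43). Higher values of Slc5a8 and of the mitochondrial enzymes of the later steps therefore stood beside a lower summed level of the colonocyte list. Goblet and other secretory genes had 11 of 11 positive differences, a median of 0.72 and summed levels of 8469 and 13787 CPM, with Muc2, the main secreted mucin, at 1.19. Their part in the members' values was not tested.

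Fat and liver, tissues rich in this pathway, were checked in the same way. White adipocyte genes had 10 of 15 positive differences, a median of 0.36, none at 0 and a summed level of 335 CPM in WT and 385 CPM in the library labelled ERAP1+/-, with Fabp4 at 435 and 887 reads, Pnpla2 at 749 and 666 and Car3 at 446 and 352. On the log2 scale Fabp4 differed by 0.76, Pnpla2 by -0.42 and Car3 by -0.59, beside 0.73 for Pparg. The part of fat cells in the value of Pparg was not tested. Brown adipocyte genes had a median of -0.99, with Ucp1 and Elovl3 at 0 in the library labelled ERAP1+/- and Cidea at 98 and 8 reads. Their summed levels were 236 and 228 CPM, from 1834 and 2118 reads. Most of these reads came from Cox7a1 (964 and 1381) and from Ppargc1a (614 and 704), which is itself a member. Hepatocyte genes were sparse, with 4 of 8 at 10 reads or more and Serpina1a and Fgb at 0 in both libraries. Of those 4, 3 differences were positive and 1 negative, with a median of 0.41. The list summed to 57.5 CPM in WT and 86.1 CPM in the library labelled ERAP1+/-, with Ttr at 391 and 709 reads. Its part in the members' values was not tested. Small intestine enterocyte genes had a median of -0.03, and Apoa4, Sis, Slc2a2 and Defa24 were at 0 in both. Lists of immune cells had medians of 0.43 for myeloid cells and 1.48 for lymphocytes and plasma cells, and those of fibroblasts, endothelium and enteric neurons and glia were -0.14, 0.12 and 0.36.

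**Figure D4:**
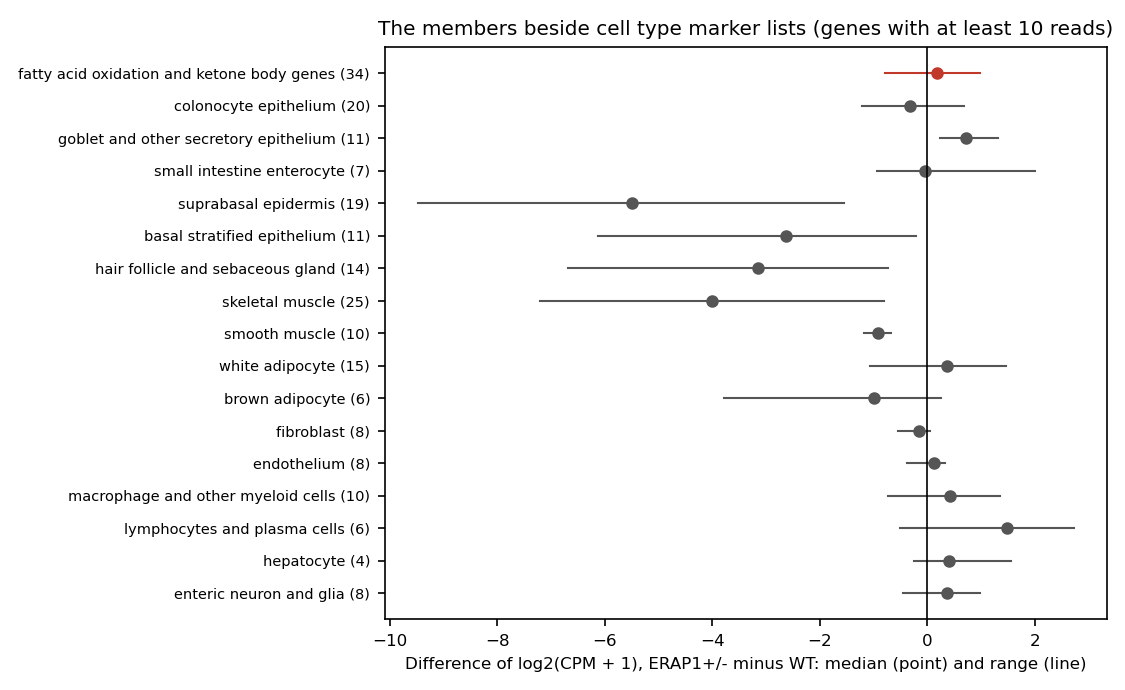
Median (point) and range (line) of the log2(CPM + 1) difference, ERAP1+/- minus WT, for the members (red) and each marker list (grey), over genes with at least 10 reads, whose number stands in parentheses. The members have a median of 0.19 and lie between -0.78 and 0.99, while suprabasal epidermis has a median of -5.49 and skeletal muscle one of -4.00.

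How the libraries are scaled to each other set the direction of the small differences. By TMM the library labelled ERAP1+/- was 1.2 times the effective size of WT, by the total count 1.10 times, and by the median ratio of the colonocyte list 0.963 times. The median of all genes past the level was -0.03, 0.10 and 0.28 under these scalings. Members with a positive difference numbered 22 of 34 by TMM, 27 by the total count and 32 with the colonocyte list as reference. Over these and the other settings tried, 24 members kept their sign, 22 positive and 2 negative, the latter being Acsl1 and Crat. Signs turned for Acsl5, Acadl, Decr2, Ppargc1a and Angptl4 by the total count, and for these and Cd36, Etfa, Bdh1, Oxct1 and Slc16a1 with the colonocyte list. Intervals above 1 numbered 21 of 33 by the total count (37.7% of all genes) and 28 with the colonocyte list (58.7% of all genes). Intervals below 1 numbered 2 (22.5% of all genes) and 1 (12.5% of all genes).

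**Figure D5:**
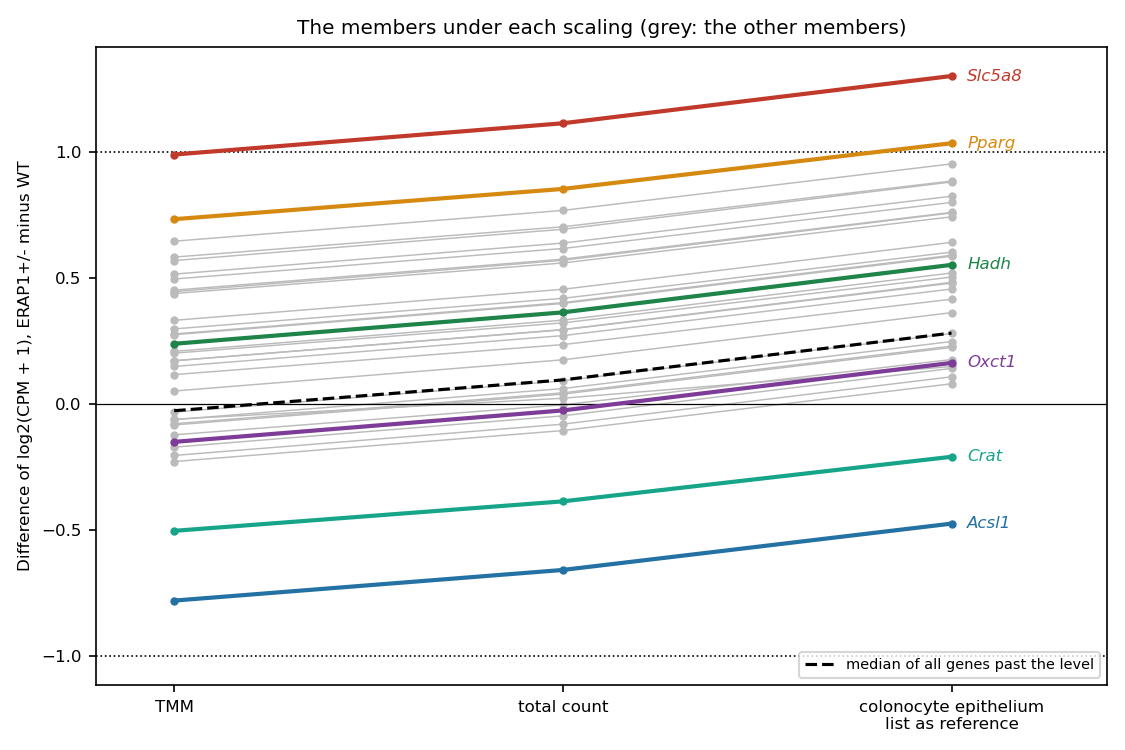
Log2(CPM + 1) difference of the 34 members with at least 10 reads, ERAP1+/- minus WT, under 3 scalings of the libraries, with 6 members in colour, the others in grey and the median of all genes past the level as a dashed line. Slc5a8 lies at 0.99 by TMM and passes 1 under the others, Oxct1 turns from -0.15 to positive with the colonocyte list, and Acsl1 and Crat lie below zero throughout.

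Reads could be shared with other genes for 4 of the 37 members, judged by 75-base windows, the read length, in the last 500 bases of their GENCODE transcripts. These were Acaa1a (32.9% of windows, with Acaa1b), Acaa1b (29.3%, with Acaa1a), Etfb (45.8%) and Eci2 (4.46%, with Eci3), and their values are uncertain to that extent. Exons of another gene overlap the same 500 bases for 6 members, on the opposite strand for Acsm3, Crat, Acadvl, Hadha and Acaa1b and on the same strand for Etfb. The kit marks the strand, but whether counting used it is not stated. The members lie on 17 chromosomes.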

How the data were processed

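Each genotype gave 1 library of intestinal RNA from 3 pooled mice, sequenced with the QuantSeq 3' mRNA-Seq FWD kit (single-end reads of 75 bases), after trimming with bbduk. The authors deposited counts, whole reads per gene symbol without normalization. The methods name STAR with HTSeq-count in one place and Bowtie2 with RSEM in another, and the submitters' processing notes list Bowtie2, RSEM and GRCm38. Which made the counts is not stated.

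TMM factors (0.958 for WT, 1.04 for ERAP1+/-) came from edgeR 4.0.16 (R 4.3.3), and CPM from the adjusted library sizes (7770357 and 9302395 reads). Mitochondrial and ribosomal RNA genes took 18.0% and 16.7% of reads. No model across replicates could be fitted. Intervals are exact conditional binomial (scipy 1.17.1), and a count of 0 allows 3 reads (0.386 CPM in WT, 0.323 CPM in ERAP1+/-). The call rule and intervals were tested on simulated data. The members and gene lists were chosen with earlier results of these data known.

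Named were all members, called genes of the other pathway lists with Cpt1b, Slc25a20, Ech1, Ppard, Fabp1, Plin2 and Ucp3, up to 3 abundant genes of each marker list, Erap1 and Xist. Other marker genes are named where they were at 0, and Ddx3y was added after its values were seen. Positions are from GENCODE M21 and promoters from RefSeq (GRCm38.p6). Alternatives were scaling by DESeq2 1.42.0, by the total count or by the colonocyte list. TMM was also computed without mitochondrial and ribosomal RNA or without skin and muscle genes. Further settings were a pseudocount of 0.1 in place of 1, other filters and thresholds of 1.5-fold and 4-fold. Protein sequences were not used here, and some genes of the pathway lists are counted with their list but not reported by name.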

Additional observations from a re-analysis of the deposited data

How the results depend on the processing

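No member passed 2-fold with DESeq2 size factors, or with TMM computed without mitochondrial and ribosomal RNA or without the skin and muscle lists. None was called with a pseudocount of 0.1, with a filter of 10 reads, with no filter, or at a threshold of 4-fold. Scaling by the total count gave 1 (Slc5a8), the colonocyte list as reference gave 2 (Pparg and Slc5a8), and a threshold of 1.5-fold gave 4. The median log2 difference of the members, 0.19, was 0.49 with the colonocyte list as reference and 0.31 by the total count, while the median of all genes past the level moved from -0.03 to 0.28 and 0.10. Of all genes past the level, 111 were called higher and 317 lower by TMM, 166 and 248 by the total count, and 304 and 194 with the colonocyte list. The shift of each single member's value under the other scalings and the pseudocount of 0.1 was set against its counting interval. The yardstick was the distance from the middle of the interval to its end on the log2 scale. By it, 183 values moved by less and 39 by more. Of the latter, 30 came with the colonocyte list, 9 with the total count and none with the remaining settings. No paired analysis was possible because WT and ERAP1+/- have 1 library each. Leaving out a replicate was not possible for the same reason. Depth limits Ehhadh, Acaa1b, Pdk4 and Angptl4, for which even a 2-fold difference lies within the counting interval or close to it.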
